A study of Mus musculus with 8 samples.

Results

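The genes described here act in or next to the growing tailbud of the mouse embryo, and the data are the chromatin accessibility around them. They are the WNT ligands Wnt3a and Wnt5a, the WNT target Sp5, the FGF ligands Fgf8 and Fgf4, the homeobox factors Cdx1, Cdx2 and Nkx1-2, and the retinoid enzymes Cyp26a1 and Aldh1a2. Each was given a fixed window of the mm9 genome around it, and every region counted by the authors that overlaps a window was taken. The windows are defined by position, and they were chosen with earlier results of these data known. They hold 25 of the 26620 counted regions, and 9 of the 10 windows hold at least 1. The tenth, that of Cyp26a1, holds 0.

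Tailbuds came from embryos at embryonic day 9.5 on the outbred CD-1 background. The 4 Sd/Sd libraries are from embryos homozygous for Danforth's short tail, and the 4 WT libraries from embryos of genotype WT/WT. Danforth's short tail is known as a retrotransposon insertion near Ptf1a that truncates the vertebral column. ATAC-seq reads open chromatin through the cuts that a transposase, Tn5, makes in it. Per the series' design text, tailbuds of 2 animals went into a library where the material was scarce. The libraries concerned were not identified here, and each library was taken as 1 replicate. A tailbud holds neural, mesodermal and gut precursors in 1 bulk sample, so fewer cells with an open region and less opening per cell cannot be told apart.

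In the tailbud, WNT and FGF signals hold progenitors in an undifferentiated state while the axis extends. CDX factors act downstream of both, and they activate posterior Hox genes. Retinoic acid made by ALDH1A2 in the mesoderm in front of the tailbud opposes these signals, and CYP26A1 breaks retinoic acid down at the posterior end.

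Windows were compared as stretches of genome, and no region was assigned to a gene, because no mm9 gene annotation was used here. In the RefSeq gene order of GRCm38, a later build, each gene has close neighbours whose regions the same window could hold. Arf1 and Wnt9a flank Wnt3a, Erich2 follows Sp5, Fbxw4 and Npm3 flank Fgf8 with Oga beyond, Fgf3 and Fgf15 flank Fgf4, Slc6a7 and Pdgfrb lie near Cdx1, Pdx1 and Urad flank Cdx2, and Oat and Lhpp flank Nkx1-2. A window's values below are therefore values of the neighbourhood, not of the gene named.

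Promoter sequences of 7 of the 10 genes are in the RefSeq set for GRCm38.p6, each from 250 bases before to 50 bases after a transcription start. The 3 that follow are shown because they differ most in the letters that WNT, retinoid and GC-box factors are known to bind. Capitals in Sp5 mark matches to the TCF/LEF motif (CTTTGAT or CTTTGTT), through which WNT signals act. Capitals in Cyp26a1 mark a direct repeat of the retinoic acid response element type, and capitals in Wnt3a mark the GC box GGGCGG, all searched on both strands, so that a GC box on the other strand shows as CCGCCC. The positions are on GRCm38.p6 and cannot be set against the mm9 positions of the regions.
Sp5, chr2:70474673-70474972, plus strand: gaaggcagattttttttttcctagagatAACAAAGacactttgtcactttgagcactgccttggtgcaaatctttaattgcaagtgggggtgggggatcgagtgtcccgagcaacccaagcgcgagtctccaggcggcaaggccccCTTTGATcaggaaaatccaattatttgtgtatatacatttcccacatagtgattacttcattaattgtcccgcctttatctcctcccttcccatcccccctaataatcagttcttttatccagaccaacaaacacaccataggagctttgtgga
Cyp26a1, chr19:37697558-37697857, plus strand: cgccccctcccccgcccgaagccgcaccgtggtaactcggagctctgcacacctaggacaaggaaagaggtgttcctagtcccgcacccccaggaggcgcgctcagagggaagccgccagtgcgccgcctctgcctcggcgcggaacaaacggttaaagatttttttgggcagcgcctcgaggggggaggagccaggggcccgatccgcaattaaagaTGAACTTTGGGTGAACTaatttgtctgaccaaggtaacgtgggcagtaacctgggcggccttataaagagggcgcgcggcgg
Wnt3a, chr11:59290702-59291001, minus strand: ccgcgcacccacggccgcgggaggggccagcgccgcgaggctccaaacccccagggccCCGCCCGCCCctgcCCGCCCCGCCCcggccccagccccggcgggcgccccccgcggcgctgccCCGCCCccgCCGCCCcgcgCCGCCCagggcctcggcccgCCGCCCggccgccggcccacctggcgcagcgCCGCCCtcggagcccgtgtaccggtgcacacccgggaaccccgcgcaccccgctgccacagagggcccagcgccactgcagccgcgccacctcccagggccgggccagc

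The Sp5 promoter held 2 TCF/LEF matches, with first bases at -222 and -104 relative to the transcription start and the first of them read on the other strand, and it was the only 1 of the 7 to hold any. Of all 32851 promoters in the set, 9.33% held such a match. The direct repeat in the Cyp26a1 promoter starts at -32 relative to the transcription start. It reads TGAACTTTGGGTGAACT on the strand shown, and 0.0396% of all promoters held a repeat of this type with half-sites AGTTCA or AGGTCA spaced by 5 bases. The Wnt3a promoter held 9 GC box matches, some of which overlap, and 86.3% of its bases are G or C, against a median of 52.7% over all promoters. GC boxes were also found in the promoters of Fgf4, Nkx1-2 and Cyp26a1, so in 4 of 7, and in 35.7% of all promoters. The CDX motif (TTTATGG or TTTATTG) and the T-box motif (TCACACCT) were found in 0 of the 7 promoters and in 7.20% and 1.28% of all promoters. A match describes letters in a 300-base window and shows no binding.

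None of the 25 regions differed between the genotypes at an adjusted p under 0.05 in edgeR's quasi-likelihood test, adjusted over all 26620 regions, of which 5 (0.0188%) passed. DESeq2 and limma with voom likewise passed 0 of the 25. At an unadjusted p under 0.05 there were 2, against 6.06% of all regions. They were 1 lower in Sd/Sd, in the Fgf8 window (3.09% of all regions were lower at that p), and 1 higher, in the Cdx2 window (2.98% were higher). With 25 regions, 2 is close to the share over the genome. The Cdx2 region had peaks in Sd/Sd libraries only, which limits what its p can show, as given below. The log2 fold changes of the 25, all given as Sd/Sd over WT, lay between -0.45 and 0.73 with a median of -0.05, against a median of 0.00057 over all regions. Of the 25, 14 were below 0 (56.0%, against 49.9% of all regions) and 11 above. Taken without sign, their median was 0.204, against 0.112 over all regions, and this difference was not tested.

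The libraries held 2873918 to 4180434 counts over all regions, and 1749 to 2078 of these fell in the 25 regions. Single regions held 8 to 166 counts per library, and the median 95% interval of a fold change reached 0.37 log2 units (1.29-fold) to each side. In 24 of the 25 regions (96.0%) the interval lay within a 2-fold change in both directions, against 98.1% of all regions. It lay within 1.5-fold in 17 (68.0%), against 73.8% of all regions. Counts are given below as CPM, counts scaled to a library total of 1000000 over all regions. Sd/Sd replicate 4, the library of highest total, had the lowest CPM of the 8 libraries in 8 of the 25 regions (32.0%), against 16.8% of all regions, and WT replicate 4 in 7 (28.0%, against 11.6%). The part of these libraries in the values below was not tested beyond leaving each out.

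**Figure D1:**
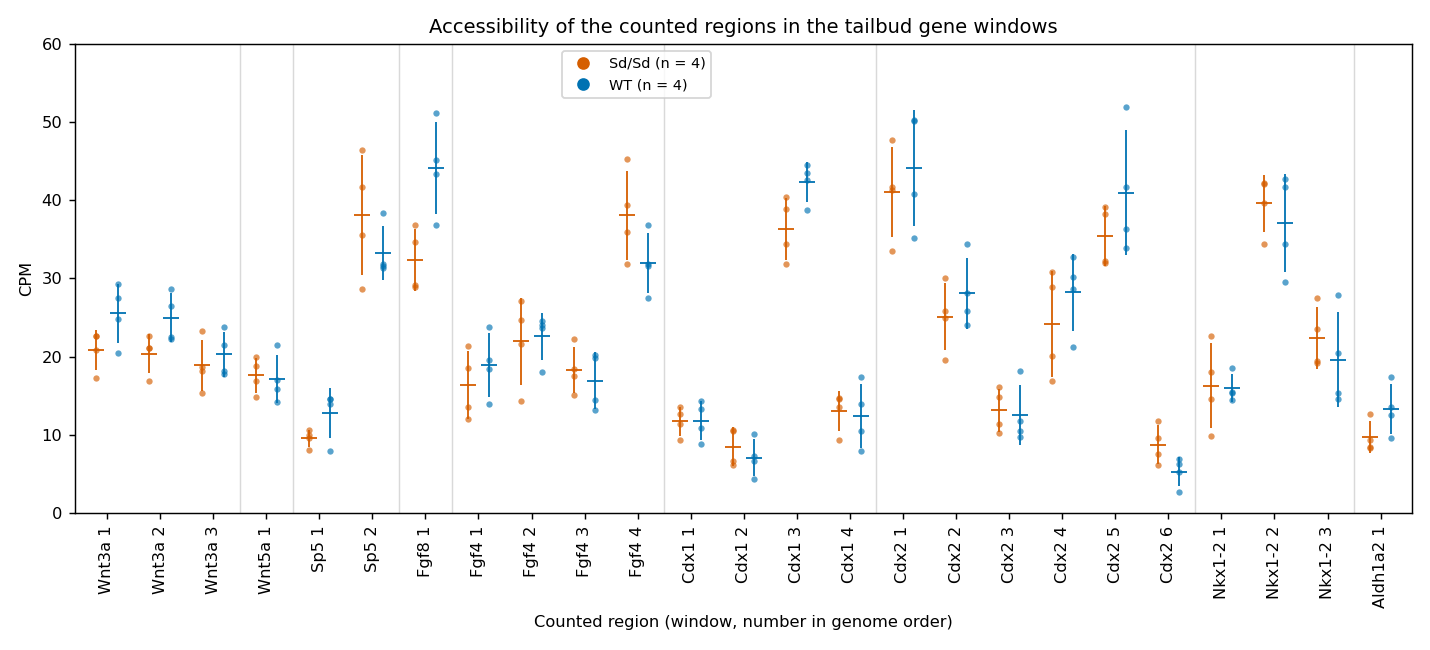
CPM of the 25 counted regions, named by window and by their order along the genome (x axis), in the 4 Sd/Sd libraries (orange) and the 4 WT libraries (blue); dashes are means and bars are SD. The Sd/Sd libraries lie at 28.9 to 36.8 CPM and the WT libraries at 36.9 to 51.1 CPM in the Fgf8 window, and the genotypes overlap in the other 24 regions.

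**Figure D2:**
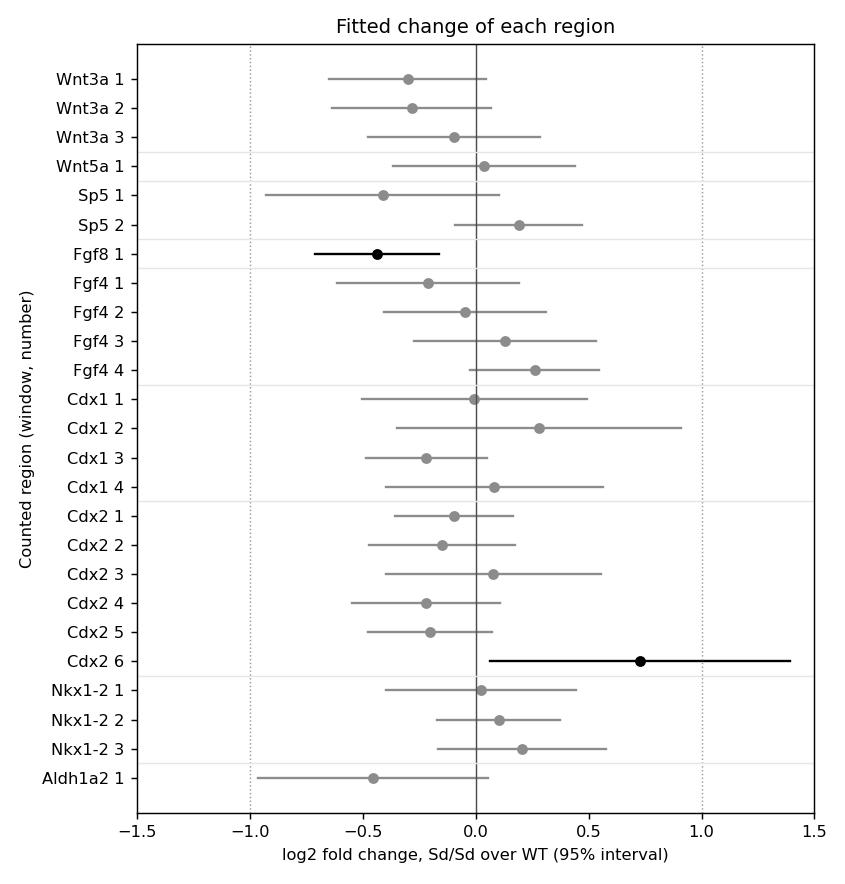
Fitted log2 fold change of each region, Sd/Sd over WT, with its 95% interval, derived from edgeR's fold change and F statistic. Dotted lines mark 2-fold. Black marks the 2 regions with an unadjusted p under 0.05, Fgf8 1 at -0.44 and Cdx2 6 at 0.73, and 0 of the 25 passed after adjustment.

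Among the WNT ligands, the Wnt3a window held 3 regions, at similar levels and without a difference that passed the test. WNT3A is the canonical WNT of the tailbud and is needed to form the posterior mesoderm. Region 1, chr11:59004924-59005727 in mm9, had 20.8, 22.7, 22.6 and 17.2 CPM in Sd/Sd libraries, against 29.3, 24.8, 20.5 and 27.5 CPM in WT libraries. The third WT library lay below 3 of the 4 Sd/Sd libraries, so the groups overlap. Its log2 fold change was -0.30 (SE 0.18, 95% interval -0.65 to 0.05, edgeR adjusted p = 0.861). Region 2 averaged 20.4 ± 2.49 CPM in Sd/Sd and 25.0 ± 3.12 CPM in WT (SD, n = 4 each), and region 3, the densest of the window at 32.0 CPM per kb, averaged 18.9 ± 3.30 in Sd/Sd and 20.3 ± 2.86 in WT. All 3 log2 fold changes were below 0, and their adjusted p in edgeR lay between 0.861 and 0.979.

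Summed over its regions, the Wnt3a window had 65.3, 57.6, 60.6 and 56.9 CPM in Sd/Sd libraries, against 81.7, 72.8, 60.5 and 68.2 CPM in WT libraries. WT replicate 3 lay among the Sd/Sd libraries and the other WT libraries lay above all 4. The difference of mean log2 CPM was -0.23 (exact permutation test, two-sided, p = 0.0857). A peak stood on region 1 in all 8 libraries, on region 2 in 3 of each genotype, and on region 3 in 3 Sd/Sd and 4 WT libraries. Here and below, a peak stands on a region if it overlaps it by at least 1 base, so it need not cover the region.

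The Wnt5a window, although 250 kb wide, held 1 region, chr14:29317607-29318590. WNT5A is a ligand of the non-canonical pathway that is needed for the elongation of the axis. The region had 16.9, 18.8, 19.9 and 14.8 CPM in Sd/Sd libraries, against 21.4, 14.2, 17.05 and 15.8 CPM in WT libraries. The groups covered the same range, and the log2 fold change was 0.04 (SE 0.20, 95% interval -0.37 to 0.44, edgeR adjusted p = 0.996). A peak was called in 1 library of each genotype. At 17.7 CPM per kb it was among the least dense regions counted, at the 1.93 percentile of all.

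Sp5 encodes a zinc finger factor of the SP family and is a direct target of WNT signals through the TCF/LEF sites of the kind printed above. Its window held 2 regions with changes of opposite sign, neither of which passed the test. Region 1, chr2:70313064-70313338, had 10.0, 8.09, 10.6 and 9.57 CPM in Sd/Sd libraries, against 13.9, 7.95, 14.6 and 14.6 CPM in WT libraries. Of the WT libraries, 3 lay above all Sd/Sd libraries and replicate 2 lay below them. The log2 fold change was -0.41 (SE 0.26, 95% interval -0.93 to 0.10, edgeR adjusted p = 0.874). The authors' peaks overlapped it in 0 Sd/Sd and 3 WT libraries, with a fold enrichment of 2.51 to 3.15, the peak caller's own value. How the authors chose the counted regions is not stated. If its WT peaks brought region 1 into the count, that choice favours lower values in Sd/Sd. Its fold change is then no support for a difference.

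Region 2 of the Sp5 window, chr2:70346801-70347794, had 35.5, 41.7, 46.4 and 28.7 CPM in Sd/Sd libraries, against 31.6, 31.8, 31.3 and 38.4 CPM in WT libraries. The Sd/Sd libraries were spread over a wider range that took in all WT libraries. The fitted change was 0.19 on the log2 scale (SE 0.14, 95% interval -0.09 to 0.47, edgeR adjusted p = 0.898), and a peak was called in all 8 libraries. Region 2 held 76.2% of the window's CPM, and the window total averaged 47.7 ± 7.84 CPM in Sd/Sd and 46.0 ± 5.43 CPM in WT (SD, n = 4 each; exact permutation test, two-sided, p = 0.771).

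The FGF windows held the region of smallest p among the 25. FGF8, which with FGF4 keeps presomitic mesoderm cells from maturing, is made in a gradient from the tailbud. Region 1 of the Fgf8 window, chr19:45857168-45858456 and the only region counted there, had 34.7, 29.1, 36.8 and 28.9 CPM in Sd/Sd libraries, against 45.2, 43.4, 51.1 and 36.9 CPM in WT libraries. All 4 Sd/Sd libraries lay below all 4 WT libraries, by 36.8 against 36.9 CPM at the nearest pair. The log2 fold change was -0.44 (SE 0.14, 95% interval -0.71 to -0.16) (a ratio of 0.738, Sd/Sd over WT), with an unadjusted p of 0.00178 and an adjusted p = 0.526 in edgeR. It thus did not pass over all regions, and 0.334% of all regions had a p as small.

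It was also the only one of the 25 whose libraries did not overlap between the genotypes, which 3.2% of all regions showed, 1.6% with Sd/Sd lower. Tested as a window total, the same counts gave p = 0.0286 (exact permutation test, two-sided), the smallest that 4 against 4 libraries allow, without adjustment for the 9 windows tested. Groups of 4 that do not overlap always give this p. Its unadjusted p stayed under 0.05 in 15 of 15 other fits, between 0.000615 and 0.0169, and its adjusted p lay between 0.266 and 0.9998 (edgeR, DESeq2 and limma). The other fits and the window total reuse the counts that gave the region its small p, so they are no independent support. A peak was called there in all 8 libraries, with a fold enrichment of 3.53, 3.66, 3.42 and 3.71 in Sd/Sd libraries, against 3.84, 3.69, 4.60 and 4.34 in WT libraries. These ranges overlap by WT replicate 2, which lies below Sd/Sd replicate 4. Whether this region belongs to Fgf8, to Npm3, Oga or to another gene of the window was not determined.

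The window also held a called peak that the authors did not count, chr19:45724430-45724857, where peaks stood in all 8 libraries. Its fold enrichment was 11.6, 11.8, 8.74 and 10.0 in Sd/Sd libraries, against 11.7, 9.36, 8.56 and 9.59 in WT libraries. Both genotypes ran from under 9 to over 11, and no other peak in the 10 windows passed a fold enrichment of 5. Without a count, no test of this interval was made.

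FGF4 shares receptors with FGF8 in the tailbud. The Fgf4 window held 4 regions, and the highest of them, region 4 at chr7:152100589-152101579, had 39.4, 35.9, 45.2 and 31.8 CPM in Sd/Sd libraries, against 31.6, 31.8, 36.9 and 27.5 CPM in WT libraries. Sd/Sd replicates 1 and 3 lay above all WT libraries, replicate 2 below the highest WT library and replicate 4 level with WT replicate 2. Region 4 had a log2 fold change of 0.26 (SE 0.14, 95% interval -0.02 to 0.54, edgeR adjusted p = 0.845). The other 3 regions averaged 16.4, 22.0 and 18.3 CPM in Sd/Sd and 19.0, 22.6 and 16.9 CPM in WT, with log2 fold changes from -0.21 to 0.13. Region 3 was the least dense of the 25, with a density at the 1.23 percentile of all regions, and it had peaks in 2 Sd/Sd and 0 WT libraries. Its bounds are the outer bounds of these peaks. It may have been counted through its Sd/Sd peaks alone, which favours higher values in Sd/Sd. The window total averaged 94.8 ± 13.1 CPM in Sd/Sd and 90.4 ± 7.82 CPM in WT (SD, n = 4 each; exact permutation test, two-sided, p = 0.657).

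The CDX factors are homeobox proteins that give posterior identity and are needed for the axis to grow. The Cdx1 window held 4 regions, of which region 3, chr18:61194366-61195872, took 54.9% of the window's CPM. It had 34.4, 38.8, 40.4 and 31.8 CPM in Sd/Sd libraries, against 42.6, 38.7, 43.5 and 44.5 CPM in WT libraries. WT replicate 2 lay within the Sd/Sd range and the other 3 WT libraries above it. Its log2 fold change was -0.22 (SE 0.14, 95% interval -0.49 to 0.05, edgeR adjusted p = 0.874). A peak stood there in 3 Sd/Sd and 4 WT libraries.

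Region 2 of the Cdx1 window, its densest at 33.3 CPM per kb, had 6.11, 10.7, 6.64 and 10.5 CPM in Sd/Sd libraries, against 7.24, 6.62, 10.1 and 4.39 CPM in WT libraries. The values of both genotypes were mixed, with a log2 fold change of 0.28 and an interval from -0.35 to 0.91 on a mean of 26.2 counts (edgeR adjusted p = 0.952). Regions 1 and 4 had log2 fold changes of -0.01 and 0.08. The window total averaged 69.6 ± 6.37 CPM in Sd/Sd and 73.7 ± 8.39 CPM in WT (SD, n = 4 each; exact permutation test, two-sided, p = 0.457).

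The Cdx2 window, the narrowest at 62 kb, held the most regions, 6. CDX2 acts in the tailbud and also specifies the hindgut. Region 1, chr5:148103885-148106037, the widest of the 25 at 2153 bp, had 41.4, 41.7, 47.7 and 33.5 CPM in Sd/Sd libraries, against 40.9, 50.3, 50.1 and 35.1 CPM in WT libraries. The groups overlapped along most of their range, and the log2 fold change was -0.10 (SE 0.13, 95% interval -0.36 to 0.16, edgeR adjusted p = 0.967). Region 3, the densest of the 25 at 47.9 CPM per kb and the 81.0 percentile of all regions, had 16.1, 11.3, 14.8 and 10.3 CPM in Sd/Sd libraries, against 10.4, 18.2, 11.8 and 9.66 CPM in WT libraries. These were mixed too, with a log2 fold change of 0.08 (SE 0.24, 95% interval -0.40 to 0.55, edgeR adjusted p = 0.993). Regions 2, 4 and 5 averaged 25.1, 24.2 and 35.4 CPM in Sd/Sd and 28.1, 28.2 and 41.0 CPM in WT, with log2 fold changes of -0.15, -0.22 and -0.20.

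Region 6 of the Cdx2 window, chr5:148131303-148131522, was the faintest of the 25, with a mean of 24.1 counts. It had 7.50, 6.15, 11.8 and 9.57 CPM in Sd/Sd libraries, against 6.95, 2.65, 6.26 and 5.27 CPM in WT libraries. Of the Sd/Sd libraries, 3 lay above all WT libraries and replicate 2 lay between them. The log2 fold change was 0.73 (SE 0.34, 95% interval 0.06 to 1.39), with an unadjusted p of 0.0324 and an adjusted p = 0.802 in edgeR. The unadjusted p was above 0.05 without WT replicate 2 (0.145), without Sd/Sd replicate 3 (0.134) or without Sd/Sd replicate 4 (0.0740). Peaks stood on it in 2 Sd/Sd and 0 WT libraries, and its bounds are the outer bounds of these peaks. The authors' rule for choosing the counted regions is not stated. If its Sd/Sd peaks brought it into the count, that choice favours higher values in Sd/Sd. Its fold change and p are then no support for a difference. The window total averaged 148 ± 12.5 CPM in Sd/Sd and 159 ± 18.3 CPM in WT (SD, n = 4 each; exact permutation test, two-sided, p = 0.371).

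NKX1-2 is a homeobox factor of the progenitors that give both spinal cord and mesoderm. Its window held 3 regions, the highest being region 2 at chr7:139767348-139768308, with 42.2, 42.1, 34.4 and 39.7 CPM in Sd/Sd libraries, against 29.6, 34.4, 41.8 and 42.8 CPM in WT libraries. The WT libraries split into a lower and a higher pair, and the Sd/Sd libraries lay within their range. For region 2 the log2 fold change was 0.10 (SE 0.14, 95% interval -0.17 to 0.37, edgeR adjusted p = 0.967), with a peak in all 8 libraries. Region 3 had 19.4, 27.5, 23.5 and 19.1 CPM in Sd/Sd libraries, against 15.4, 20.5, 27.8 and 14.6 CPM in WT libraries. In this region WT replicates 1 and 4 were the lowest of all 8 and WT replicate 3 was the highest. Its log2 fold change was 0.20 (SE 0.19, edgeR adjusted p = 0.932), and peaks stood in 4 Sd/Sd and 2 WT libraries. The window total averaged 78.3 ± 6.69 CPM in Sd/Sd and 72.7 ± 10.4 CPM in WT (SD, n = 4 each; exact permutation test, two-sided, p = 0.400).

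The retinoid windows held 1 counted region between them, and it did not pass the test. In the 150 kb of the Cyp26a1 window no region was counted, and the authors' lists held 1 peak there, in WT replicate 4, chr19:37760905-37761784, with a fold enrichment of 2.79. No peak was called in the Sd/Sd libraries or the other 3 WT libraries. In the 200 kb Aldh1a2 window 1 region was counted, chr9:71063053-71063628. It had 8.33, 8.41, 12.7 and 9.33 CPM in Sd/Sd libraries, against 17.4, 9.60, 13.6 and 12.6 CPM in WT libraries. The highest Sd/Sd library lay above 2 of the 4 WT libraries, and the log2 fold change was -0.45 (SE 0.26, 95% interval -0.96 to 0.05, edgeR adjusted p = 0.859; exact permutation test of the window total, two-sided, p = 0.0857). Peaks were called on it in 0 Sd/Sd and 2 WT libraries, and its bounds are the outer bounds of these peaks. If these WT peaks brought the region into the count, that choice favours lower values in Sd/Sd. Its fold change and p are then no support for a difference.

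**Figure D3:**
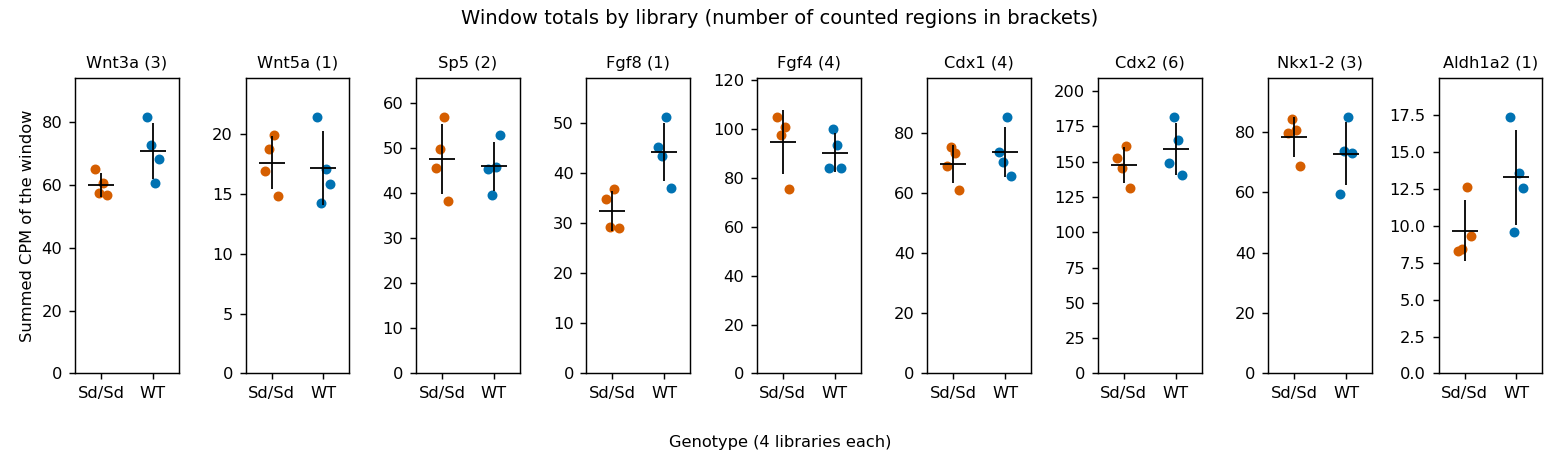
Summed CPM of each window that holds a counted region (y axes start at 0 and differ in scale), in the 4 Sd/Sd libraries (orange, left) and the 4 WT libraries (blue, right); black dashes are means and bars are SD. The Fgf8 window, at 32.4 ± 3.97 CPM in Sd/Sd and 44.2 ± 5.87 CPM in WT, is the only one of the 9 without overlap.

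Across the 8 libraries the window totals varied together to differing degrees, described by Pearson's r of log2 CPM. The points share library and depth, and the difference between genotypes is left in them. That difference was largest in the Fgf8 and Aldh1a2 windows (-0.445 and -0.446 log2 units), and its part in r was not tested. The totals most alike were those of the Fgf4 and Cdx2 windows (r = 0.70). The Fgf8 and Aldh1a2 windows were each other's nearest (r = 0.69), as were the Wnt5a and Sp5 windows (r = 0.59). The total most like that of the Nkx1-2 window was Fgf4 (r = 0.65), that of the Cdx1 window Fgf8 (r = 0.63), and that of the Wnt3a window Fgf8 (r = 0.57). The pair least alike was Wnt3a and Nkx1-2 (r = -0.69).

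Against all counted regions, those in the windows were sparse. Regions that a peak overlapped by at least 1 base in all 8 libraries numbered 5 of the 25 (20.0%), against 41.3% of all regions. Their median density was 29.7 CPM per kb and their median level 21.0 CPM, against 32.9 CPM per kb and 25.8 CPM over all regions, and 9 of the 25 lay above the median density. Densities within a window ranged most in that of Cdx2, from 19.8 to 47.9 CPM per kb. Both Sp5 regions, at 40.6 and 35.9 CPM per kb, were above the median of all regions, and all 3 of the Wnt3a window were below it.

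**Figure D4:**
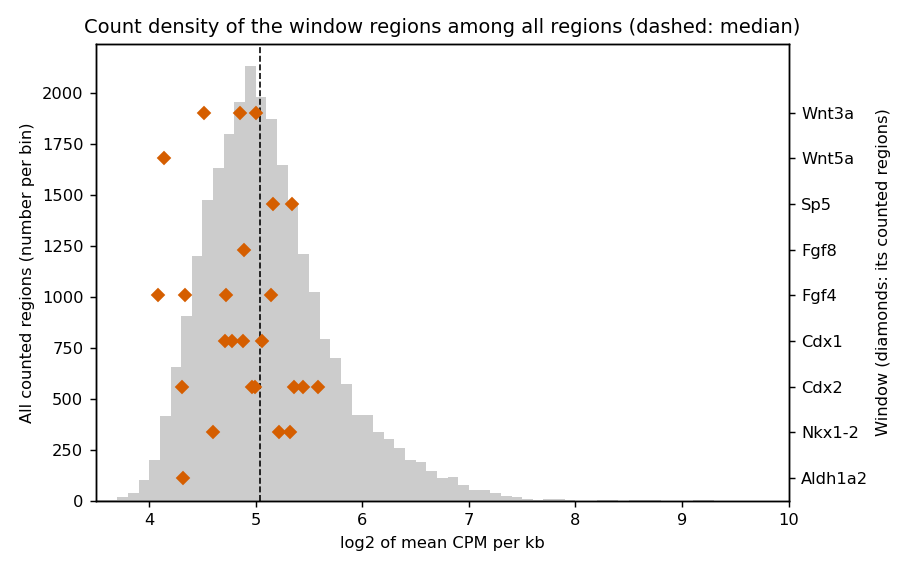
Histogram of log2 mean CPM per kb over all 26620 counted regions (grey, left axis), with the 25 window regions as diamonds on a line for each window (right axis); the dashed line is the median of all regions, 32.9 CPM per kb. Of the 25 regions 9 lie to its right, and the farthest right, region 3 of the Cdx2 window, lies at the 81.0 percentile.

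Peaks called separately in each library merged into 37 intervals in the 10 windows, 25 of which overlap a counted region. Of the 12 uncounted intervals, 10 had a peak in 1 library only. No interval had a peak in all 4 libraries of one genotype and none of the other. Peaks in Sd/Sd libraries alone stood on 8 intervals and peaks in WT libraries alone on 6. Over all windows there were 21, 14, 18 and 18 peaks in Sd/Sd libraries, against 15, 22, 15 and 19 in WT libraries, a mean of 17.8 ± 2.87 in Sd/Sd and 17.8 ± 3.40 in WT (SD, n = 4 each). The means were equal and the ranges overlapped. Of 100 possible presences on the 25 regions in each genotype, 60 were met in Sd/Sd and 62 in WT. The libraries differed in how many peaks were called over the genome, with 21306 to 30387 in Sd/Sd and 18682 to 24664 in WT. With the 18682 top-ranked peaks of each library, the presences numbered 43 in Sd/Sd and 52 in WT, and the mean difference in peaks per library was -2.5, Sd/Sd minus WT. The windows then held 12, 13, 14 and 11 peaks in Sd/Sd libraries, against 12, 20, 15 and 13 in WT libraries. WT replicate 2, with 20, lay well above the rest. No test of the mean difference was made. Presences and intervals were not counted over all regions, so whether these numbers are particular to the windows was not tested.

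**Figure D5:**
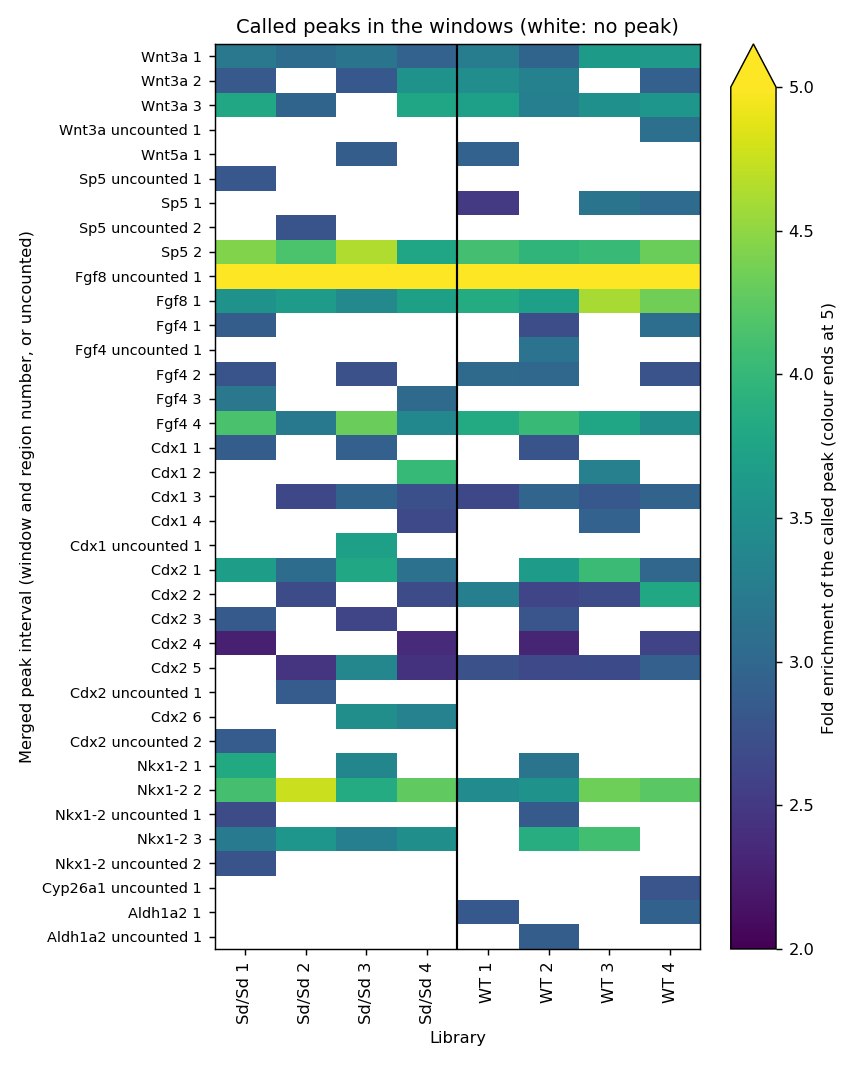
Fold enrichment of the called peak (colour, the authors' value) in each merged interval of the windows (rows, named by region number or as uncounted) and library (columns, Sd/Sd left of the line and WT right); white is no peak. The uncounted Fgf8 interval stands out in all 8 libraries at 8.56 to 11.8, and no row is filled on one side of the line and empty on the other.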

How the data were processed

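Chromatin accessibility was measured by ATAC-seq in 4 Sd/Sd and 4 WT libraries of embryonic day 9.5 tailbuds. Per the submitters' processing notes, the build was mm9 and the tools included MACS2 2.1.1.20160309, bedtools 2.26.0, BWA 0.7.15-r1140, SAMtools and Picard. Not given in the sources used here are the settings and any shift of reads for Tn5. Per region, the authors deposited whole-number counts without normalization, over 1 region set for all libraries. Whether a count is a read or a fragment is not stated. They also deposited broad peaks called per library, in which a peak carries the caller's −log10 p-value, −log10 q-value, fold enrichment over background (a ratio) and score.

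Windows were taken from fixed mm9 positions, and the lists and motifs too were chosen with earlier results of these data known. Tested on the deposited counts, genotype was the only term in edgeR 4.0.16 (quasi-likelihood, robust, TMM, R 4.3.3), fitted to all 26620 regions and all 8 libraries with Benjamini-Hochberg adjustment over all of them. The SE and 95% interval of a region were derived from the fold change and F statistic of that test, and they are approximate. The low-count filter removed 0 regions. The procedure was tested on simulated counts. CPM are counts scaled to a library total of 1000000, and window totals were compared by exact permutation (70 arrangements, SciPy 1.17.1). In each window the text names the regions of highest CPM, highest CPM per kb and smallest p, and any with an unadjusted p under 0.05 or with no overlap. Alternatives were DESeq2 1.42.0, limma 3.58.1 with voom, other scalings, a filter, a replicate block, stricter peaks and leaving out each library. Replicate pairs of 1 genotype differed by more than counting noise. RefSeq promoters (GRCm38.p6) were searched by exact letters. A list of further WNT, FGF, CDX and retinoid genes, and markers of blood, endothelium and neural crest, were not counted, since they need an mm9 annotation.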

Additional observations from a re-analysis of the deposited data

Results flagged for a closer look

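Of 42 groups of 4 libraries examined, 2 held a library that stood well apart from the others, which by chance happens in about 1 of 20 groups. In region 1 of the Sp5 window WT replicate 2 had 7.95 CPM against 13.9 to 14.6 CPM in the other WT libraries. In region 2 of the same window WT replicate 4 had 38.4 CPM against 31.3 to 31.8 CPM in the others. WT replicate 2 was also the only WT library without a called peak on region 1, which had peaks in 0 Sd/Sd libraries. Leaving out a library because it stands apart favours a larger difference, so the values without it are no support. The log2 fold change was then -0.58 in region 1, against -0.41 with all libraries, and without WT replicate 4 it was 0.27 in region 2, against 0.19 with all libraries. Both adjusted p, 0.93 and 0.765 in edgeR, were above 0.05.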

How the results depend on the processing

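The count of 0 window regions at an adjusted p under 0.05 was the same in all 15 alternatives. Over all 26620 regions 5 passed with all libraries, and the alternatives passed between 2 (without Sd/Sd replicate 2) and 23 (with the replicate block). The count at an unadjusted p under 0.05, 2 with all libraries, was 1 with a minimum mean count of 50 per region, which leaves out region 6 of the Cdx2 window. With 1 library left out it was 2 to 4. The 4, without WT replicate 3, added region 4 of the Fgf4 window and region 1 of the Wnt3a window. Of all 26620 regions, 1614 passed at that p with all libraries and 1447 without WT replicate 3. With any 1 library left out, 1283 to 2051 passed. Of the 21405 regions with a mean count of at least 50, 1304 passed. The 1 window total with an exact p under 0.05, that of Fgf8, was 0 under the replicate block (p = 0.125, the smallest possible there), 0 without the region of highest mean count, since the Fgf8 window has 1 region, and 0 to 0 with a library left out, where the smallest possible p is 0.0571. The Fgf8 difference then ran from -0.53 to -0.37 on the log2 scale. The mean difference in peaks per library, 0, was -1.08 to 1.42 with a library left out, 0 with peaks of q at most 1e-05 and -2.5 with the 18682 top-ranked peaks of each. Differences near 0 changed sign. Without the region of highest mean count the totals were -0.38 in the Sp5, -0.055 in the Fgf4 and 0.12 in the Cdx1 window. With a library left out they ran from -0.036 to 0.16 in the Wnt5a and from -0.048 to 0.14 in the Sp5 window, and the fitted changes from -0.039 to 0.31 in region 3 of the Cdx2 window and from -0.043 to 0.16 in that of Wnt5a. Same-numbered libraries of the genotypes correlated at -0.0011 to 0.0918, and 1 of 4 Sd/Sd libraries, replicate 4, correlated best with its own number. That pair had the highest correlation of any Sd/Sd with any WT library, and the next highest was 0.0204. What a replicate number stands for is not stated, so the numbers were not taken as pairs. Whether the libraries numbered 4 share a source of variation was not tested. The 95% intervals bound the change within 1.5-fold in 17 of the 25 regions, and they hold counting error and the spread between libraries together.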
